A study of Mus musculus with 9 samples.

Results

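Mucus in the colon is made by goblet cells, and 10 of their genes were followed here in the colon of wild-type mice. The genes were taken by symbol from a fixed list: Muc2, Fcgbp, Clca1, Tff3 and Spink4, whose products are secreted; Agr2, a folding factor of the endoplasmic reticulum; the transcription factors Spdef and Atoh1; and the membrane mucins Muc13 and Muc4. All 10 were found among the 22262 genes with a count in any mouse, each had at least 24 counts in every mouse, and all 10 passed the filter on low counts that left 17441 genes for testing. The rule used symbols alone, but the list was drawn up with earlier results of these data known.

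The mice were female C57BL/6N wild-type animals aged 12 months without a transgene. The standard environment group (WT_SE, n = 4, mice 1, 2, 3 and 5) lived in ordinary cages of 3 to 4 animals. The enriched environment group (WT_EE, n = 5, mice 1 to 5), also labelled enhanced environment, lived from weaning in larger cages of 8 animals. These held objects, tunnels and running wheels. Mice of either group may have shared a cage, and p-values then cover only the spread between these animals. A piece of upper colon 2 to 3 cm long was flushed and frozen whole, so RNA of epithelium, muscle and other layers was mixed, and fewer goblet cells cannot be told apart from less RNA per goblet cell. WT_SE mouse 4 was not analysed here.

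Muc2 forms the polymer that gives the mucus gel of the colon its structure, and Fcgbp, Clca1 and Tff3 are secreted into the same gel. Clca1 is a metalloprotease that cleaves Muc2, Tff3 is a trefoil peptide tied to repair of the epithelium, and Spink4 is a small secreted protein of the Kazal inhibitor type. Agr2 is a protein disulfide isomerase needed for Muc2 to mature. Atoh1, a basic helix-loop-helix factor, sets epithelial precursors on the secretory path when Notch signaling is low, and Spdef, an Ets-type factor, acts after it in goblet cell maturation. Muc13 and Muc4 stay anchored in the cell membrane, and Muc13 is made by absorptive cells too.

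On the mouse genome GRCm38 with GENCODE release 21, Muc2 lay on the plus strand of chromosome 7 from 141690340 to 141754693 and Fcgbp on the same strand from 28071236 to 28120862. Clca1 spans 145003817 to 145032776 of chromosome 3 (minus strand), and Spink4 lay on the plus strand of chromosome 4 from 40920052 to 40931395. Chromosome 17 held both Tff3 (31125306 to 31129646) and Spdef (27714352 to 27728955), each on the minus strand. Agr2 was on the plus strand of chromosome 12 from 35992907 to 36004087, and Atoh1 on the plus strand of chromosome 6 from 64729125 to 64731245. Both membrane mucins lay on the plus strand of chromosome 16, Muc4 from 32735886 to 32782391 and Muc13 from 33794037 to 33819934. Muc13 overlaps the antisense gene Gm15657, which had 33 counts over all 9 mice, and Muc4 overlaps Muc20 on the opposite strand, which had 4. The strand setting of the counting was not given in the sources used here, so reads in these overlaps could belong to either gene.

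RefSeq promoter sequences (GRCm38.p6) were at hand for 7 of the 10 genes, namely Muc2, Fcgbp, Agr2, Spdef, Atoh1, Muc13 and Muc4. The 250 bases before the annotated start are shown for the 2 gel genes that carry CAGCTG, an E-box of the class bound by factors such as Atoh1, and for Spdef, which does not carry it. CAGCTG reads the same on both strands and stands in capitals. It occurs in 13% of the 32851 promoters of this length, so 2 of 7 genes holding it describes these windows and no more. Other motifs were searched as well. CATCTG, another E-box, was found for Muc13, and a Cdx type for Agr2 and Muc4. A GC box was found for Atoh1 and Muc2, and a Klf type for Fcgbp. The forkhead and Ets types searched were found for none of the 7.
Muc2, plus strand, chr7:141690090-141690339: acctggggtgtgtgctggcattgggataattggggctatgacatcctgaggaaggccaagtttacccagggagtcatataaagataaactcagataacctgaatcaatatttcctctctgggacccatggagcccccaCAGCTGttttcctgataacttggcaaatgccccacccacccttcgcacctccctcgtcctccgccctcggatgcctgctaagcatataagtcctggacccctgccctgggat
Fcgbp, plus strand, chr7:28070986-28071235: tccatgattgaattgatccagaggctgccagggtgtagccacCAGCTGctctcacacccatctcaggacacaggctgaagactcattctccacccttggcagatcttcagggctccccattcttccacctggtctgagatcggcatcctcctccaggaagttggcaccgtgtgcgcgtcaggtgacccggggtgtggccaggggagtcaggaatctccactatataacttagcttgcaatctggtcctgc
Spdef, minus strand, chr17:27728952-27729201: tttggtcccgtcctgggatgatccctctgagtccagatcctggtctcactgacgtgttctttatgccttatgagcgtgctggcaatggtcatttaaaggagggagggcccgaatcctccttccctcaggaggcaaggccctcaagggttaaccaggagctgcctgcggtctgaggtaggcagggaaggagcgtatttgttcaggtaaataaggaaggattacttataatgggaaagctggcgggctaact

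Libraries were read from the 3′ end of messenger RNA and carried random tags (unique molecular identifiers) by which copies of one molecule are counted once. Since each molecule gives about 1 tag whatever its length, levels of different genes were compared without a length correction. Totals of the WT_SE libraries were 299062 to 383401 counts, and those of the WT_EE libraries 295535 to 454043. Normalized CPM (counts relative to the library total, scaled by the TMM factors of edgeR) is the unit of every level below, and 3 counts, the limit that a count of 0 allows, equal 6.61 to 10.2 CPM before that scaling. Counts of abundant genes did not grow in proportion to the library total. Regressing the log of summed counts on the log of the total gave a slope of 1.26 for genes with a mean of 20 to 50 counts, where Atoh1 lies, and 0.873 for 50 to 100 counts, where Spdef and Muc4 lie. It was 0.467 for 100 to 200 counts (Fcgbp, Clca1, Agr2, Tff3, Spink4 and Muc13) and 0.492 for the 19 genes at 200 to 400 counts, Muc2 among them. In these 9 libraries the summed counts of abundant genes thus tended to be lower in CPM where the total was larger. The median total was 362850 in WT_SE and 426436 in WT_EE. Tissue makeup also differed between libraries, and WT_EE mice 2 and 4, highest in smooth muscle markers, had totals of 295535 and 336967 counts. Whether depth or makeup lies behind the slopes, and the part of either in the differences below, was not tested directly. A fit with cyclic loess normalization, which scales by abundance, called 2 of the 10 genes, Clca1 and Tff3 again. Its values for related genes stand with those genes.

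**Figure D1:**
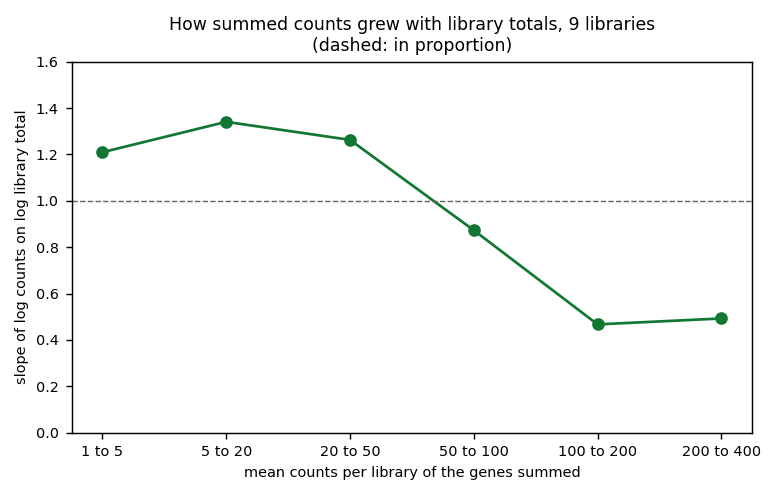
Slope of log summed counts on log library total (vertical axis, no unit) for genes binned by their mean counts per library (horizontal axis), over 9 libraries. Points fall from 1.26 at 20 to 50 counts to 0.467 at 100 to 200 counts, below the dashed line at 1 that marks growth in proportion.

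Muc2 was the most abundant of the 10 genes. Its mean was 765 CPM over the 9 mice, at the 99.96th percentile of the genes tested, and it ranked first of the 10 in 7 mice and below Clca1 in WT_EE mice 3 and 4. Clca1 followed with a mean of 469 CPM, then Agr2 with 414, Muc13 with 392, Fcgbp with 345, Spink4 with 305 and Tff3 with 276. The order is one of counts. Sums of abundant genes rose less than library totals, as described, so distances between genes of unlike abundance are uncertain. Lower levels were found for Muc4 (190 CPM) and both transcription factors, Spdef with 166 CPM and Atoh1 with 112 CPM, the lowest of the 10 in every mouse. Neighbours in this order from Clca1 down to Tff3, and likewise Muc4 and Spdef, differed in level by less than the spread between mice of 1 environment. Together the 10 genes made up 0.273% to 0.373% of all counts in WT_SE and 0.292% to 0.426% in WT_EE.

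Between the environments, Clca1 was higher and Tff3 lower in WT_EE, and the other 8 genes did not pass the test. A gene was called where its p before adjustment was under 0.05 in edgeR's quasi-likelihood test, and 2 of the 10 were called, against 7.64% of all 17441 genes (4.3% higher and 3.34% lower) and 10.3% of the 5812 genes with a mean of at least 20 counts. After Benjamini-Hochberg adjustment over all genes tested, 0 of the 10 passed in this edgeR fit, as against 0.0401% (7 genes) of all, and 0 passed with DESeq2 or limma-voom. The direction of calls over all genes depended on the scaling, with 56.3% of them higher in WT_EE with TMM, 45.0% with upper quartile normalization and 44.1% when scaled to the pan-epithelial markers. The median log2 fold change of the 10 was 0.08, with 7 positive and 3 negative values, beside 0.0096 for all genes. Groups without any overlap in CPM were found for 1 of the 10, Tff3, and for 2.59% of all genes.

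**Figure D2:**
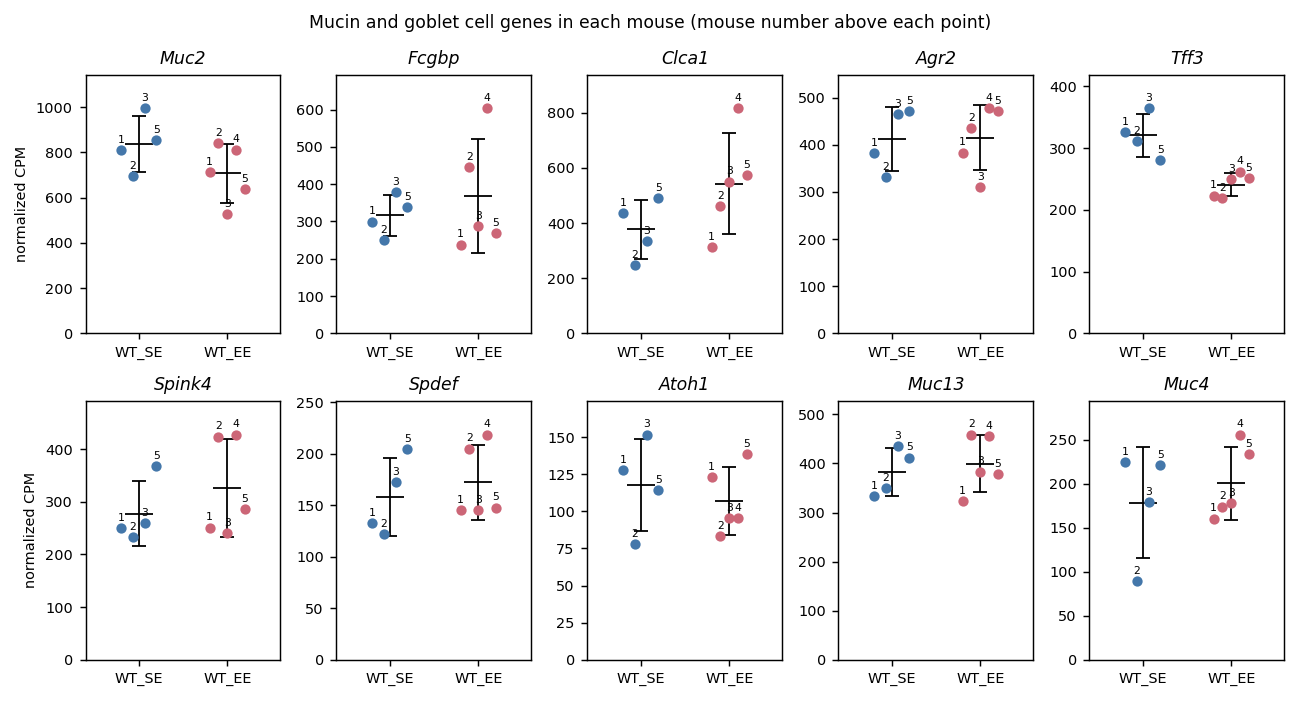
Normalized CPM (vertical axes, each from 0) of the 10 genes in WT_SE (n = 4) and WT_EE (n = 5), 1 point per mouse with the mouse number above it. Horizontal lines are means and error bars 1 SD, and Tff3 is the only gene whose WT_EE mice (219 to 262) all lie below the WT_SE mice (281 to 364).

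Tff3 was lower in every WT_EE mouse than in every WT_SE mouse. In WT_SE it measured 326, 311, 364 and 281 CPM in mice 1, 2, 3 and 5, from 125, 112, 108 and 103 counts. In WT_EE it measured 223, 219, 249, 262 and 252 CPM in mice 1 to 5, from 103, 63, 115, 85 and 109 counts. The means were 321 ± 34.7 (SD, n = 4) and 241 ± 18.8 (SD, n = 5), a 1.33-fold difference, and Tff3 had the smallest relative spread of the 10 within WT_EE. The log2 fold change was −0.41 ± 0.13 (SE), with a Benjamini-Hochberg adjusted p of 0.324 in edgeR over all genes tested. The exact permutation test of the CPM values, taken on both sides, gave p = 0.00794, the smallest value that 4 mice against 5 allow. The libraries of WT_SE mice 1 and 3, which held the highest values, carry another name ending (L3) than the remaining 7 (L2). With the ending as a covariate the difference was −0.30, and among the 7 libraries ending in L2 it was −0.28. The call was lost in both fits while the direction stayed. Both L3 libraries were WT_SE, so either difference rests on WT_SE mice 2 and 5 alone against the WT_EE mice.

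Clca1 moved the other way, with overlap between the groups. WT_SE mice 1, 2, 3 and 5 had 435, 247, 334 and 491 CPM, from 167, 89, 99 and 180 counts. WT_EE mice 1 to 5 had 312, 462, 550.4, 816 and 575 CPM, from 144, 133, 254, 265 and 249 counts. WT_EE mice 3, 4 and 5 lay above the highest WT_SE mouse, whereas WT_EE mouse 1 lay below 3 of the 4 WT_SE mice. The means were 377 ± 108 (SD, n = 4) and 543 ± 184 (SD, n = 5), and the log2 fold change was 0.52 ± 0.19 (SE), with an adjusted p of 0.413. The exact permutation test on the CPM values gave p = 0.159. The edgeR call was lost without WT_SE mouse 2 (log2 fold change 0.35) and without WT_EE mouse 4 (0.34), and DESeq2 did not make it (0.52). Across the 24 alternatives the log2 fold change was 0.30 to 0.68, the adjusted p was 0.0382 with no filter on low counts and higher elsewhere, and 20 kept the call.

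The proteins of Clca1 and Muc2 meet in the gel, and their transcripts were also set against each other within a mouse. A ratio removes the scaling of the library, but not the unlike growth of counts with library totals between genes of unlike abundance. Per Muc2 count, WT_SE had 0.451 ± 0.123 Clca1 counts and WT_EE 0.787 ± 0.276 (SD, exact permutation p = 0.0794). Per Tff3 count, Clca1 stood at 1.2 ± 0.433 in WT_SE and 2.22 ± 0.612 in WT_EE (exact permutation p = 0.0317), and the 2 groups overlapped. Agr2 per Muc2 count was 0.492 ± 0.0404 and 0.593 ± 0.0862 (exact permutation p = 0.0476), and Fcgbp per Muc2 count 0.376 ± 0.0154 and 0.514 ± 0.154 (exact permutation p = 0.111), each also with overlap. Tff3 per Muc2 count (exact permutation p = 0.492) and Atoh1 per Spdef count (exact permutation p = 0.508) did not pass. These were 6 ratios in all, with p-values not adjusted for their number, and the ratios of genes that were called share those genes' counts.

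Muc2 itself was 1.19-fold lower in WT_EE, a difference that did not pass the test. WT_SE mice 1, 2, 3 and 5 had 810, 695, 996 and 854 CPM, from 311, 250, 295 and 313 counts. WT_EE mice 1 to 5 had 714, 841, 527, 813 and 640 CPM, from 330, 242, 243, 264 and 277 counts. WT_EE mice 3 and 5 lay below every WT_SE mouse, and WT_EE mice 2 and 4 lay among them. The log2 fold change was −0.25 ± 0.14 (SE, adjusted p = 0.697), with an exact permutation p of 0.183. It was negative in all 24 alternatives, from −0.42 to −0.13, and it was called in 9 of them, among them those without WT_SE mouse 2 (−0.34), WT_EE mouse 2 (−0.32) or WT_EE mouse 4 (−0.30), while the adjusted p was at least 0.106. Scaled to the pan-epithelial markers (11 genes, Epcam and keratins among them), it was called, at −0.30. Expressed per 100 counts of those markers, Muc2 stood at 26.4 ± 2.50 in WT_SE (24.4 to 30.1) and 21.5 ± 2.44 in WT_EE (18.0 to 24.0). The groups did not overlap on this scale (exact permutation p = 0.0159, not adjusted for the 10 genes). The share of all genes without overlap on it was not computed. Of the 11 markers themselves, Lgals4 was called higher (0.30) and Cdx2 lower (−0.67) in WT_EE.

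On the same epithelial scale Tff3 was at 10.2 ± 1.21 in WT_SE and 7.41 ± 0.865 in WT_EE (exact permutation p = 0.0159), now with an overlap between WT_SE mouse 5 (8.41) and WT_EE mouse 3 (8.53). Clca1 was at 11.8 ± 2.90 and 16.5 ± 4.75 (exact permutation p = 0.151). For the other 7 genes the exact permutation p on this scale lay between 0.325 and 0.929.

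The remaining secreted products, Fcgbp and Spink4, varied mainly between mice of 1 environment. Fcgbp measured 299.6, 250.1, 378 and 338 CPM in WT_SE mice 1, 2, 3 and 5 and 238, 445, 288, 604 and 268 CPM in WT_EE mice 1 to 5. Its spread in WT_EE, a CV of 41.8%, was the widest of the 10 and came from mice 2 and 4, while mice 1, 3 and 5 lay within or below the WT_SE range. The log2 fold change was 0.20 (adjusted p = 0.85) and −0.25 without those 2 mice. Spink4 measured 250.1, 233, 259.9 and 368 CPM in WT_SE mice 1, 2, 3 and 5, and 251, 424, 241, 428 and 286 CPM in WT_EE mice 1 to 5. Again WT_EE mice 2 and 4 stood highest, and the log2 fold change of 0.21 (adjusted p = 0.819) became −0.10 without them. Without WT_SE mouse 5 alone, Spink4 was called, at 0.38.

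Agr2, the folding factor, had nearly equal means in both environments. It measured 383, 331, 466 and 472 CPM in WT_SE mice 1, 2, 3 and 5, and 383, 435, 309.9, 477 and 471 CPM in WT_EE mice 1 to 5. The means were 413 ± 68.2 (SD, n = 4) and 415 ± 69.8 (SD, n = 5). The log2 fold change was 0.0049 with a 95% interval of −0.28 to 0.29, so changes within that range in either direction remain compatible with these values.

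Neither transcription factor passed the test. Spdef had 44 to 75 counts per mouse and measured 133, 122, 172 and 205 CPM in WT_SE mice 1, 2, 3 and 5, and 145, 205, 145, 219 and 148 CPM in WT_EE mice 1 to 5. Its log2 fold change was 0.11 with a 95% interval of −0.24 to 0.45 (adjusted p = 0.925). Atoh1 had 24 to 60 counts and measured 128, 77.8, 152 and 115 CPM in WT_SE mice 1, 2, 3 and 5, and 123, 83.4, 95.4, 95.5 and 139 CPM in WT_EE mice 1 to 5. Its log2 fold change was −0.11 with a 95% interval of −0.50 to 0.28 (adjusted p = 0.93). The mice highest in Spdef, WT_EE mouse 4 and WT_EE mouse 2, were not those highest in Atoh1, WT_SE mouse 3 and WT_EE mouse 5.

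The membrane mucins did not pass either. Muc13 was the steadiest of the 10 over all 9 mice, with the highest mouse 1.42 times the lowest, and measured 333, 350.1, 435 and 412 CPM in WT_SE mice 1, 2, 3 and 5, and 323, 459, 384, 456 and 379 CPM in WT_EE mice 1 to 5. Its log2 fold change was 0.06 with a 95% interval of −0.22 to 0.33 (adjusted p = 0.96). Muc4 measured 224, 88.9, 179 and 221 CPM in WT_SE mice 1, 2, 3 and 5, and 160.2, 174, 178, 256 and 233 CPM in WT_EE mice 1 to 5, with WT_SE mouse 2 at 32 counts far below the other WT_SE mice. Its log2 fold change was 0.16 with a 95% interval of −0.22 to 0.53 (adjusted p = 0.894), and −0.07 without WT_SE mouse 2.

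**Figure D3:**
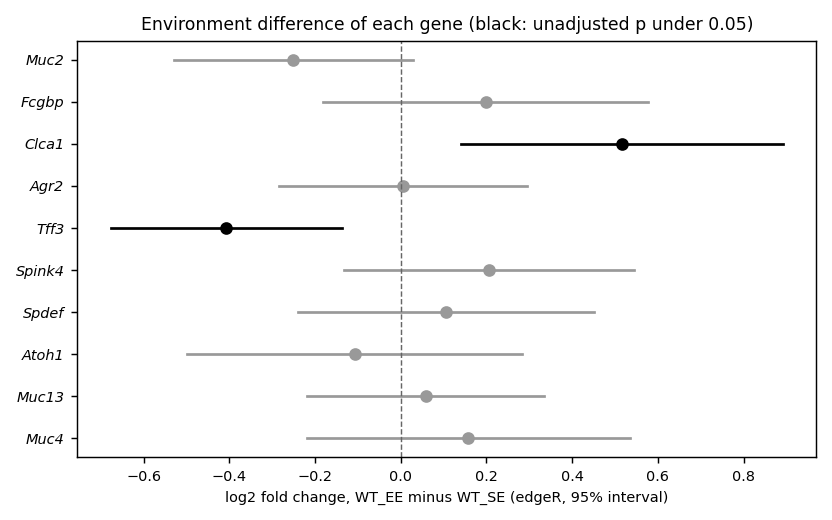
Log2 fold change of WT_EE against WT_SE for the 10 genes (horizontal axis) with 95% intervals from edgeR (lines). Black marks an unadjusted p under 0.05, which Clca1 (0.52) and Tff3 (−0.41) reached, and the intervals of the other 8 genes include 0.

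The mice of 1 environment also differed among themselves over several of these genes. WT_EE mouse 4 held the highest CPM of 6 genes, WT_SE mouse 3 of 3 and WT_EE mouse 2 of 1, and WT_SE mouse 2 held the lowest of 5. WT_SE mouse 5 was above the mean of all mice for all 10 genes, WT_SE mouse 2 was below it for 9, and WT_EE mice 1 and 3 were below it for 9 each. Across the 9 mice, Spdef moved most closely with Spink4 (Pearson r = 0.922 of log2 CPM), Muc13 (0.862) and Fcgbp (0.852), and Clca1 with Muc4 (0.825). Muc2 followed Agr2 best among the 10 (0.669) and Clca1 least (−0.130). Tff3 stood apart, its highest correlation with another of the 10 being 0.447, with Muc2. These are descriptions over 9 libraries that share totals, tissue makeup and environment.

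Some features of the tissue pieces differed between mice and are given beside these values. Counts of Slc10a2, a bile acid transporter known best from the ileum, were 26, 103, 110 and 16 in WT_SE mice 1, 2, 3 and 5, and 107, 3, 117, 4 and 10 in WT_EE mice 1 to 5, so that 4 mice had over 100 and 5 had at most 26. Hoxb13, a posterior Hox gene, had 4, 0, 0 and 56 counts in WT_SE and 0, 45, 21, 24 and 20 in WT_EE in the same order. The summed level of 7 smooth muscle markers, Myh11 and Des among them, was 1665 to 2136 CPM in WT_SE, 3119 and 3052 CPM in WT_EE mice 2 and 4 and 1660 to 2115 CPM in the other 3 WT_EE mice, and 3 of the 7 were called higher in WT_EE. WT_EE mice 2 and 4, highest in muscle markers and lowest in Slc10a2, were also the 2 highest mice for Fcgbp, Spink4, Spdef and Muc13. The same mice had the highest sums of pan-epithelial markers (3508 and 3696 CPM) and of absorptive colonocyte markers (4603 and 4475 CPM). The part of any of these features in the goblet cell genes was not tested.

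Tff3 did not overlap between the groups over all 9 mice, so it could not overlap within either Slc10a2 class, and this split is a description only. Among the 5 mice with few Slc10a2 counts it measured 281 to 326 CPM in WT_SE (n = 2) and 219 to 262 in WT_EE (n = 3), and among the 4 mice with many it measured 311 to 364 (n = 2) and 223 to 249 (n = 2). Clca1 measured 435 to 491 CPM in WT_SE and 462 to 816 in WT_EE where Slc10a2 was low, and 247 to 334 and 312 to 550.4 where it was high, so the range of each group began lower in the second class, and the groups overlapped in both. With the log2 Slc10a2 level as a covariate the log2 fold change of Clca1 was 0.30 and not called, against 0.52 without it, and Tff3 kept its call. Without WT_EE mice 2 and 4 Muc2 was called, at −0.42, and Clca1 and Tff3 kept their calls. These fits were chosen after the values of Slc10a2 and the muscle markers were seen.

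**Figure D4:**
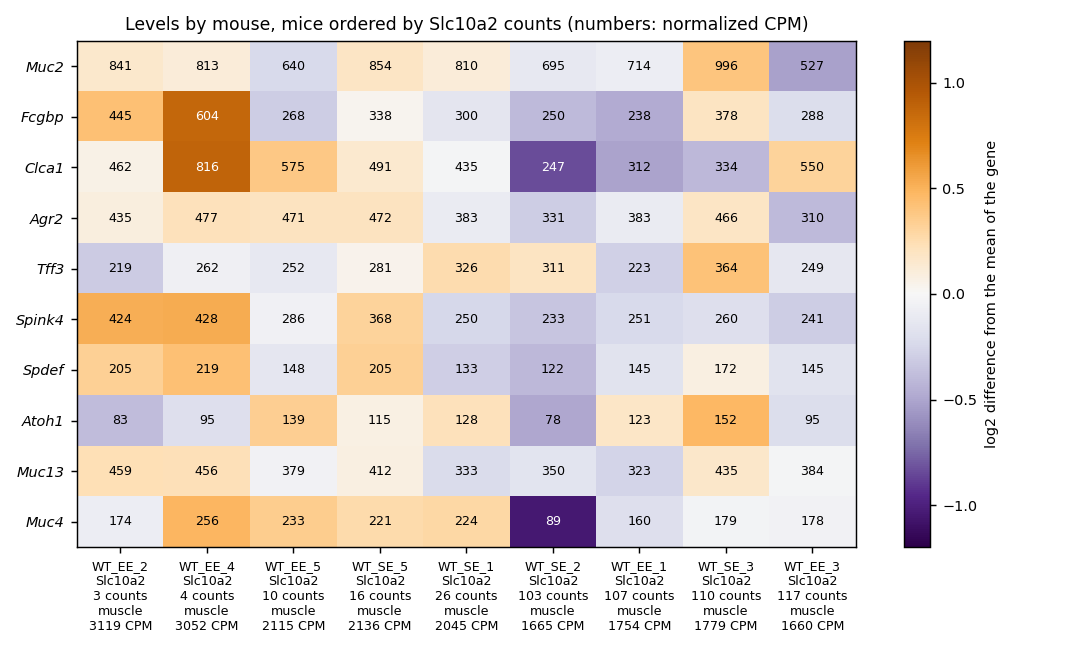
Normalized CPM of the 10 genes (numbers in the cells) in the 9 mice, ordered from left to right by their Slc10a2 counts, with the summed smooth muscle markers under each mouse. Color gives the log2 difference of a mouse from the mean of that gene; Clca1, Fcgbp and Spink4 are highest in WT_EE mouse 4, and Tff3 is below its mean in all 5 WT_EE mice wherever they stand in this order.

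The wider mucus pathway was read from lists of 91 other genes, of which 81 could be tested. Of these, 9 were called higher and 6 lower in WT_EE. That is 15 of 81, against 7.64% of all genes and 10.3% of genes with a mean of at least 20 counts. In this fit 0 passed the adjustment over all genes. In other edgeR fits, Ang4, Itln1, Retnlb and St3gal1 passed it with no filter on low counts (adjusted p = 1.22e-16, 6.67e-05, 2.97e-05 and 0.00911), where 143 genes of all passed. The same 4 passed with the mouse number as a block. In the same order, the exact permutation p of their CPM values was 0.0714, 0.0397, 0.159 and 0.00794. With no filter the SE of Ang4 was 0.171, against 0.416 in the main fit, at log2 fold changes of 1.58 and 1.57. Ang4, Itln1 and St3gal1 passed without WT_SE mouse 5, and Ang4 and Itln1 without WT_EE mouse 1. None of the 81 passed in DESeq2, in limma-voom or in the other edgeR alternatives. Their median log2 fold change was 0.003. Other goblet cell products gave 4 higher and 0 lower of 16, O-glycan enzymes 1 higher and 4 lower of 25, secretory fate regulators 2 higher and 0 lower of 18, and mucus release and processing 2 higher and 2 lower of 10. The 6 other mucins and 6 endoplasmic reticulum factors gave 0 calls. The count of 15 fell to 6 without WT_SE mouse 3, to 9 without WT_EE mouse 4, to 6 without WT_EE mice 2 and 4, to 7 with the Slc10a2 covariate and to 4 in DESeq2. Of the 15 genes themselves, B4galnt2, Itln1, St3gal1 and Vamp8 stayed called in DESeq2, Ang4, Itln1, St3gal1 and Vamp8 with the name ending as a covariate, Itln1, Retnlb, St3gal1 and Vamp8 among libraries ending in L2, and Ang4, Itln1 and St3gal1 without WT_EE mice 2 and 4. With the Slc10a2 covariate Ang4, B3gnt6, Galnt5, Itln1, Rab27a and St3gal1 did. Cyclic loess normalization with limma-voom ended the calls of Ang4 (1.6), Jag1 (0.49), Cftr (−0.34), Fut2 (−0.23), B3gnt6 (−0.48), Galnt5 (−0.69), Capn9 (0.59), Rab27a (0.36) and Slc4a4 (−0.26) and gave Klf4 one (0.30), and limma-voom alone also did not call B3gnt6, Galnt5, Capn9, Rab27a and Slc4a4.

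Among the other goblet cell products, Itln1, Ang4, Retnlb and Capn9 were called higher and the other 12 were not called. Itln1 (intelectin, a lectin that binds microbial sugars) had 0, 1, 0 and 9 counts in WT_SE mice 1, 2, 3 and 5 and 3, 12, 25, 24 and 12 in WT_EE mice 1 to 5. WT_SE mouse 5 thus lay among the WT_EE mice, and the other 3 WT_SE mice were at or under 3 counts. The log2 fold change of Itln1 was 2.42 ± 0.60 (SE, adjusted p = 0.130), and it stayed called in all 23 alternatives that tested it, from 1.5 to 4.95, the highest value coming without WT_SE mouse 5, where the WT_SE counts left are 0 or 1 and the fitted value depends on the prior count.

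Ang4, an angiogenin with antimicrobial activity, had 15, 24, 3 and 77 counts in WT_SE mice 1, 2, 3 and 5 and 11, 87, 114, 147 and 112 in WT_EE mice 1 to 5. WT_EE mouse 1 lay with the low WT_SE mice and WT_SE mouse 5 close to the other WT_EE mice. Its log2 fold change was 1.57 ± 0.42 (SE, adjusted p = 0.175), 2.64 without WT_SE mouse 5 (adjusted p = 0.00358) and 1.90 without WT_EE mouse 1 (adjusted p = 0.00141). It was not called among the 7 libraries ending in L2 (0.86), in DESeq2 (1.66) or with cyclic loess normalization (1.6), and stayed called at 0.85 with the name ending as a covariate, 1.03 with the Slc10a2 covariate and 1.07 without WT_EE mice 2 and 4. With the mouse number as a block its adjusted p was 1.72e-08, although a shared number belongs to separate animals. The exact permutation p of its CPM values was 0.0714. Reads of Ang4 may be split with its close paralogs, so its level is uncertain.

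Retnlb (RELMβ, a goblet cell protein active against bacteria) had 121, 21, 1 and 131 counts in WT_SE mice 1, 2, 3 and 5 and 108, 115, 113, 162 and 149 in WT_EE mice 1 to 5. The 5 WT_EE mice and WT_SE mice 1 and 5 lay together, and the 2 low mice were WT_SE mice 2 and 3, both with over 100 Slc10a2 counts, a class that also held WT_EE mice 1 and 3 with 108 and 113 Retnlb counts. Its log2 fold change of 0.84 ± 0.34 (SE, adjusted p = 0.501) was 0.54 without WT_SE mouse 2 and 0.48 without WT_SE mouse 3, and called in neither, nor with the Slc10a2 covariate (0.44), without WT_EE mice 2 and 4 (0.52), with the name ending as a covariate (0.70) or in DESeq2 (0.91). Capn9, a calpain of the digestive tract, had 6 to 14 counts in mice of WT_SE and 13 to 18 in those of WT_EE, and a log2 fold change of 0.64 (adjusted p = 0.64), and lost its call in 16 of 24 alternatives, among them those without WT_SE mouse 1, 2 or 3 or WT_EE mouse 2, 3 or 4. Zg16, a lectin of the mucus and the most abundant gene of this list, did not pass, at 511 ± 200.3 CPM (SD, n = 4) and 555 ± 49.4 CPM (SD, n = 5), but was called at 0.39 without WT_SE mouse 1. Klk1, a kallikrein, was at −0.16 (adjusted p = 0.819).

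O-glycans make up most of the mass of a mucin and are built by enzymes in the Golgi. St3gal1, which adds sialic acid to the core 1 glycan, was higher in every WT_EE mouse, with 28.7, 25.0, 10.1 and 54.6 CPM in WT_SE mice 1, 2, 3 and 5 and 60.6, 59.1, 69.3, 89.3 and 64.7 CPM in WT_EE mice 1 to 5. The counts behind these were low, 3 to 20 in WT_SE and 17 to 32 in WT_EE. The log2 fold change was 1.16 ± 0.29 (SE, adjusted p = 0.138). The exact permutation p was 0.00794, without adjustment for the 81 related genes tested. St3gal1 stayed called in all 24 alternatives, from 0.77 with the name ending as a covariate to 1.63 without WT_SE mouse 5. Fut2, Papss2 and Vamp8, given below, also kept the groups apart. So did 2.59% of all genes and 3.46% of those with a mean of at least 20 counts. The 4 enzymes that were lower were B4galnt2 (−0.71, adjusted p = 0.416), which makes the Sda antigen, Galnt5 (−0.76, adjusted p = 0.539), which starts O-glycans, B3gnt6 (−0.55, adjusted p = 0.648), the core 3 synthase, and Fut2 (−0.28, adjusted p = 0.646), which adds fucose.

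Of these 4, only Fut2 kept the groups apart, with 219 to 233 CPM in WT_SE and 156 to 201 in WT_EE. B4galnt2 had 62.7 to 142 CPM in WT_SE and 27.8 to 91.0 in WT_EE, and lost its call without WT_SE mouse 3 (−0.54), with the Slc10a2 covariate (−0.38), without WT_EE mice 2 and 4 (−0.38), with the name ending as a covariate (−0.61) and among libraries ending in L2 (−0.60). Galnt5 was at −0.40 without WT_SE mouse 1, −0.58 without WT_EE mouse 4, −0.47 without WT_EE mice 2 and 4, −0.16 with the name ending as a covariate and −0.15 among libraries ending in L2, and called in none of these. B3gnt6 lost its call without WT_SE mouse 1 or 5 or WT_EE mouse 2, 3 or 4 (−0.51 to −0.30) and without WT_EE mice 2 and 4 (−0.30), and Fut2 when any 1 mouse other than WT_EE mouse 1 was left out (−0.30 to −0.24). Papss2, which makes the sulfate donor, did not pass (−0.25, adjusted p = 0.671), although its 5 WT_EE mice (223 to 252 CPM) all lay below the 4 WT_SE mice (261 to 321). Galnt7 (−0.09), Gcnt3 (−0.11) and St6galnac6 (0.17), the most abundant of the other enzymes, did not pass either.

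Among the regulators and release factors, Jag1, a Notch ligand, was at 44.4 ± 5.52 CPM in WT_SE and 67.9 ± 17.1 in WT_EE (log2 fold change 0.58, adjusted p = 0.535), and Foxa3, a forkhead factor of goblet cells, at 121 ± 8.80 and 156 ± 22.7 (0.35, adjusted p = 0.59). Vamp8, a SNARE protein that serves mucin granule release, was higher in every WT_EE mouse, with 94.5 to 112 CPM in WT_SE and 117 to 174 in WT_EE (0.46, adjusted p = 0.458). WT_EE mice 2 and 4, highest in muscle markers, were also highest in Vamp8, and without them it was at 0.28 and not called. Rab27a, a GTPase of secretory granules, was at 0.37 (adjusted p = 0.651).

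Both ion transporters of the list were lower, Cftr, the chloride and bicarbonate channel, at −0.37 (adjusted p = 0.593) and Slc4a4, the sodium bicarbonate cotransporter, at −0.34 (adjusted p = 0.598). Cftr lost its call when WT_SE mouse 1 or 3 or WT_EE mouse 2 or 4 was left out, at −0.37 to −0.24, and Slc4a4 when WT_SE mouse 2 or 3 or WT_EE mouse 2 or 5 was, at −0.33 to −0.19. Cftr was at −0.15 without WT_EE mice 2 and 4, −0.20 among libraries ending in L2 and −0.22 with the name ending as a covariate, and Slc4a4 at −0.22 with the Slc10a2 covariate, with no call in these. The abundant regulators Klf4 (0.27), Sox9 (0.02) and Hnf4a (−0.13) did not pass the test. Nor did the membrane mucin Muc3 (0.05) and the protease Mep1a (−0.11). Jag1 lost its call without WT_SE mouse 3 or WT_EE mouse 4 (0.47 to 0.52), Foxa3 without WT_SE mouse 2 or 3 or WT_EE mouse 2, 3 or 5 (0.31 to 0.35), and Rab27a without WT_SE mouse 1, 3 or 5 or WT_EE mouse 1, 2 or 3 (0.32 to 0.42). Klf4 gained a call without WT_SE mouse 5 or WT_EE mouse 1 or 3 (0.35 to 0.46). B3gnt6, Fut2 and Rab27a fall outside the rule for named genes and were named after their values were seen.

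**Figure D5:**
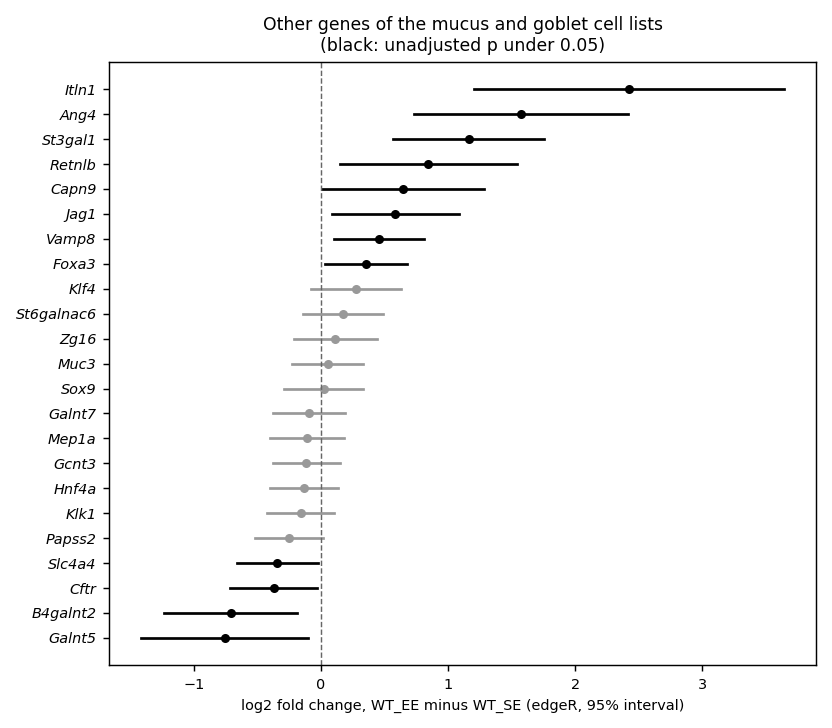
Log2 fold change of WT_EE against WT_SE (horizontal axis) with 95% edgeR intervals for 23 other genes of the mucus lists, chosen by smallest p or highest counts. Black marks an unadjusted p under 0.05, from Itln1 (2.42) and Ang4 (1.57) at the top to B4galnt2 (−0.71) and Galnt5 (−0.76) at the bottom.

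The genes whose level followed that of Muc2 most closely over the 9 mice were not goblet cell genes of these lists. Among 5811 genes with a mean of at least 20 counts, the 10 highest Pearson correlations of log2 CPM belonged to Dlg3 (0.949), Baz2b (0.947), Fmn1 (0.946), Cbx1 (0.940), Acsl3 (0.939), Vezf1 (0.932), Tpm3-rs7 (0.931), Yme1l1 (0.928), Tsn (0.928) and Smc1a (0.925). Agr2 came at position 485, Fcgbp at 948, Spdef at 955, Tff3 at 1219 and Clca1 at 3744. With 9 mice and 5811 genes the order is a description. The values share the library totals and the relation of abundant counts to them described above.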

How the data were processed

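Colon RNA of 9 wild-type mice was analysed. Per the labels and methods, the authors made libraries with the Lexogen QuantSeq 3′ kit, trimmed reads with fastp 0.20.0, aligned them to GRCm38.p6 with STAR (2.7.0f in the submitters' processing notes; the paper names another release), and assigned them with featureCounts 1.6.0 and UMI-tools. The authors deposited whole-number molecule counts per gene without normalization, 1 file per mouse.

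Here, counts were joined by Ensembl identifier, a gene missing from a file being 0 counts. Symbols came from GENCODE release 21 for 22248 of 22262 genes. The 17441 genes that reached 4 CPM in some library were fitted in R 4.3.3 with edgeR 4.0.16 (TMM, quasi-likelihood F test, no covariate besides environment). Adjusted p-values follow Benjamini and Hochberg over those genes, and intervals are 95%. Calls use the p before adjustment, which the text does not print because the groups hold 4 and 5 mice; it prints adjusted and exact permutation p-values. The common coefficient of biological variation was 15.1%. Normalized CPM and ratios of single genes were compared by exact permutation of the mice, on both sides (python 3.11.15, numpy 2.4.6, pandas 2.3.3; figures, matplotlib 3.10.9). Pairs of libraries of 1 environment differed by a chi-square per degree of freedom of 1.19 to 2.55, so none was counted as a repeat. The fit was tested on simulated data.

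The 10 genes and all lists were chosen with earlier results of these data known. Besides the 10, the text names other mucus genes with an unadjusted p under 0.05 (at most the 12 smallest), those with a mean of at least 50 counts (at most the 12 highest), and the 10 nearest to Muc2 in correlation. Listed genes without counts (Tff1, Muc5ac, Muc15, Muc19, Galnt2 and St6galnac1) were not analysed here. The symbols Muc12 and Muc17 are not in the annotation used, so these genes could not be looked up. Alternatives were other filters, normalizations and thresholds, DESeq2 1.42.0, limma-voom (limma 3.58.1), the mouse number from the labels as a block, a covariate for the ending of library names, and each mouse left out. Cyclic loess normalization, the log2 Slc10a2 covariate and the fit without both libraries highest in muscle markers were added after seeing the data. Counts cover counting error only where no replicate spread is given. Intervals of log2 fold changes come from the edgeR fit and include the spread between mice of the same environment.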

Additional observations from a re-analysis of the deposited data

Results flagged for a closer look

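Of 66 groups of 4 or 5 mice examined for a single value far from the rest, covering the 10 genes and 23 related ones, 1 stood out, where chance at 1 in 20 would give 3.3. It was Itln1 in WT_SE mouse 5, with 24.6 CPM (9 counts) against 0 to 2.78 CPM (0 or 1 count) in the other 3 WT_SE mice, a gap of 0.887 of the group's range. None of the 20 groups of the 10 main genes stood out in this way. WT_SE mouse 5 also had the highest Ang4 level of WT_SE (210.0 CPM, against 10.1 to 66.7), few Slc10a2 counts (16) and the most Hoxb13 counts of all mice (56). The part of these in its Itln1 level was not tested.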

How the results depend on the processing

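The 10 genes gave 2 calls, and this became 1 in DESeq2, 1 with the name ending added as a covariate, 1 among the libraries ending in L2 and 0 after adjustment over all genes. Leaving out 1 mouse gave 2 to 3. The 1333 calls over all genes became 804 with filterByExpr, 643 in DESeq2, 685 with the ending as a covariate, 677 among libraries ending in L2, 408 at a p under 0.01 and 7 after adjustment, and 898 to 1583 with 1 mouse left out. The 15 calls among related genes became 4 in DESeq2, 6 with the ending as a covariate, 6 among libraries ending in L2, 7 with the Slc10a2 covariate, 6 without WT_EE mice 2 and 4, and 6 to 19 with 1 mouse left out. The cause of these moves was not tested. The 1 gene without overlap between the groups was Tff3, also with library totals alone, whereas scaled to the pan-epithelial markers it was Muc2.

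With the mouse number as a replicate block, 3 of the 10 were called, and 1165 of all genes. WT_EE mouse 4 has no WT_SE mouse of its number here, so it does not enter the environment difference of this fit. A number shared by WT_SE and WT_EE belongs to separate animals, and their deviations from the group means correlated at −0.022, 0.048, 0.15 and 0.15 for mice 1, 2, 3 and 5, so the numbers were not taken as pairs. The block added a call for Muc2 (−0.31), and Clca1 (0.32) and Tff3 kept theirs.

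Clca1 and Tff3 kept their direction under all 24 alternatives. Log2 fold changes that were not called turned sign as follows. With RLE normalization this was Agr2 −0.0019. With upper quartile normalization these were Agr2 −0.036, Sox9 −0.014. With scaling to the pan-epithelial markers these were Agr2 −0.038, Sox9 −0.027. With the DESeq2 Wald test this was Agr2 −0.0018. With limma-voom these were Agr2 −0.0081, Sox9 −0.012. With the mouse number as a replicate block these were Agr2 −0.052, Fcgbp −0.066, Muc3 −0.0022, Sox9 −0.075. With the log2 Slc10a2 level as a covariate these were Agr2 −0.12, Fcgbp −0.055, Klf4 −0.025, Muc13 −0.021, Muc3 −0.060, Muc4 −0.0092, Sox9 −0.093, Spdef −0.038, Spink4 −0.036, St6galnac6 −0.018, Zg16 −0.0013. With WT_EE mice 2 and 4 left out these were Agr2 −0.088, Atoh1 0.022, Fcgbp −0.25, Muc13 −0.077, Muc3 −0.10, Sox9 −0.21, Spdef −0.11, Spink4 −0.10, St6galnac6 −0.011. With the ending of the library name as a covariate these were Atoh1 0.17, Muc3 −0.034. With only the libraries ending in L2 these were Atoh1 0.18, Galnt7 0.0055, Muc3 −0.025. With 1 mouse left out the ranges were Agr2 −0.095 to 0.090, Atoh1 −0.27 to 0.031, Fcgbp −0.044 to 0.32, Galnt7 −0.15 to 0.0013, Muc13 −0.0034 to 0.13, Muc3 −0.0021 to 0.16, Muc4 −0.073 to 0.29, Sox9 −0.067 to 0.13, Spdef −0.0068 to 0.27, Zg16 −0.029 to 0.39. Of the related genes named, St3gal1, Itln1, Capn9 and Galnt5 rest on the least depth, with fewer than 20 counts per mouse on average.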

Other observations

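Other lineages of the epithelium were read from marker lists in the same fit. Of 7 enteroendocrine and tuft cell markers, the granins Chga (172 ± 81.1 CPM in WT_SE and 105 ± 48.5 in WT_EE, log2 fold change −0.63, adjusted p = 0.458) and Chgb (240 ± 65.4 and 152 ± 61.3, −0.59, adjusted p = 0.33) were called lower in WT_EE by p before adjustment, whereas the hormone genes Pyy (0.03, adjusted p = 0.978) and Gcg (−0.26, adjusted p = 0.747) were not called. The other 3, Insl5 (0.79, adjusted p = 0.694), Trpm5 (0.82, adjusted p = 0.743) and Dclk1 (0.22, adjusted p = 0.889), were not called and had values of the opposite sign to the granins. Of 7 tested markers of crypt stem and dividing cells, Lgr5 was higher (0.74, adjusted p = 0.63) and the proliferation gene Mki67 lower (−0.52, adjusted p = 0.381), and 2 of the 7 values were positive and 5 negative. Of 11 absorptive colonocyte markers, Aqp8 was higher (0.72, adjusted p = 0.629), and of the 11 values 5 were positive and 6 negative. None of these passed the adjustment over all genes.

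Cdx2, the homeobox factor of intestinal epithelium, was lower in every WT_EE mouse than in any WT_SE mouse. It was at 106 ± 9.45 CPM in WT_SE and 66.0 ± 15.1 CPM in WT_EE (−0.67, adjusted p = 0.244, exact permutation p = 0.00794). Over all genes, 2.59% kept the groups apart in this way. Among the 11 pan-epithelial markers that list Cdx2, Lgals4 was higher (0.30, adjusted p = 0.557) and the other 9 did not pass. Their summed level was 2851 to 3342 CPM in WT_SE and 2921 to 3696 CPM in WT_EE.

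Summed levels of markers of other cell types overlapped between the environments. They were 8.18 to 563 CPM in WT_SE and 6.93 to 234 CPM in WT_EE for fat cells (Plin1 was lower, −1.80, adjusted p = 0.519), 249.7 to 368 and 245 to 344 CPM for B and plasma cells (Cd79b and Ms4a1 were lower, from at most 11 CPM on average), 65.1 to 91.7 and 46.2 to 117 CPM for T cells and macrophages (0 of 8 called), and 57.3 to 164 and 61.6 to 154 CPM for Paneth and small intestine markers (0 of 4 called). Of 5 tested genes that mark position along the colon, Hoxd11 was lower in WT_EE (−0.97, adjusted p = 0.425).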
